A study of Mus musculus with 4 samples.

Results

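The MAP kinase cascade and the dual-specificity phosphatases were examined among RNAs recovered from mouse brain with an antibody to the cytoplasmic polyadenylation element binding protein CPEB2. Members were taken by name, as genes whose array symbol begins with Map2k, Map3k, Map4k, Mapk or Dusp followed by a number. This rule took 70 of 24185 gene symbols, with 115 probes on 133 spots. The families themselves were chosen with earlier results of these data known, so counts of members describe these data and are no independent support. The material was corticohippocampal lysate of 8-week-old male C57BL/6 mice, which was kept for 3 h with beads carrying CPEB2 IgG or control IgG. There were 2 independent experiments and hence 4 one-colour arrays, 2 with CPEB2 IgG and 2 with control IgG. The lysates were divided between the 2 antibodies, and the arrays were therefore compared in pairs. Arrays were paired by replicate number, which is taken to mark a shared lysate, although the sample labels do not say so. The number of mice behind a lysate is not given in the sources used here. The description field of both CPEB2 arrays reads CPEB3 IgG where titles and protocol read CPEB2 IgG, and the titles were followed.

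The MAP kinase cascade passes a signal along a chain of protein kinases. A MAP4K or a small GTPase starts the chain, a MAP3K phosphorylates a MAP2K, and the MAP2K phosphorylates a MAP kinase on a threonine and a tyrosine. The MAP kinases fall into the ERK, JNK, p38 and ERK5 branches and a few atypical kinases, and in cortical and hippocampal neurons the ERK branch is known for its part in synaptic plasticity and memory. The dual-specificity phosphatases (DUSPs) remove both phosphates, and several DUSP genes are themselves induced by MAP kinase activity. CPEB proteins bind a U-rich element in mRNAs and control their polyadenylation and translation.

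Between 67.6% and 73.4% of probes were well above background on each array, and no spot was saturated. All 6 neuron markers and all 5 markers of cortical and hippocampal excitatory neurons were well above background on all 4 arrays, and of 4 markers of other tissues Alb was not above background on any array, whereas Ins2, Krt5 and Myh2 were above it on all 4. In bulk lysate, fewer cells of a type and less RNA per cell cannot be told apart, and no array of input RNA was analysed here, so a difference between antibodies is a difference in recovered RNA. Cpeb2 mRNA itself was higher with CPEB2 IgG by 2.89 ± 0.29 on the log2 scale (SD, n = 2 experiments, adjusted p = 0.00543), and Gapdh, a glycolytic enzyme often used as a reference, was lower by a log2 difference of -2.52 ± 0.29 (adjusted p = 0.00543). The arrays lay on 1 slide, but each antibody had its own array positions, so position and antibody cannot be told apart.

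Members moved in both directions. Of the 68 members bright enough to be tested, 21 were higher with CPEB2 IgG and 18 were lower at an adjusted p below 0.05, and 29 did not pass. Over all 19698 genes tested, 21.2% were higher and 20.4% were lower, whereas the members' shares were 30.9% and 26.5%. Median centring in place of the 75th percentile raised the median of all genes by 0.23 and gave 24 members higher and 13 lower. Over all genes tested it gave 5212 higher and 3301 lower. The members' median log2 fold change was -0.09, close to the -0.11 of all genes, and their values ran from -2.0 for Mapk8ip3 to 3.71 for Map3k2. Both CPEB2 IgG arrays lay above both control IgG arrays in 29 members (33.7% of all genes tested), both control IgG arrays lay on top in 30 (38.2% of all genes), and the groups overlapped in 9. The sign was the same in both experiments in 60 members and opposite in 8. Signals are given below after scaling each array to its 75th percentile, and folds as CPEB2 IgG over control IgG. With 2 arrays a side, an exact permutation test that ignores the pairing cannot go below a two-sided p of 0.333. One that keeps the pairs has fewer arrangements and thus a higher limit. The adjusted p-values therefore rest on the spread that limma shares across all genes. When 1 array was left out, 18 of the 39 called members kept their call with each array removed in turn. Without either control IgG array, and likewise without CPEB2 IgG replicate 2, fewer members were called in both directions, and so were fewer of all genes tested.

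**Figure D1:**
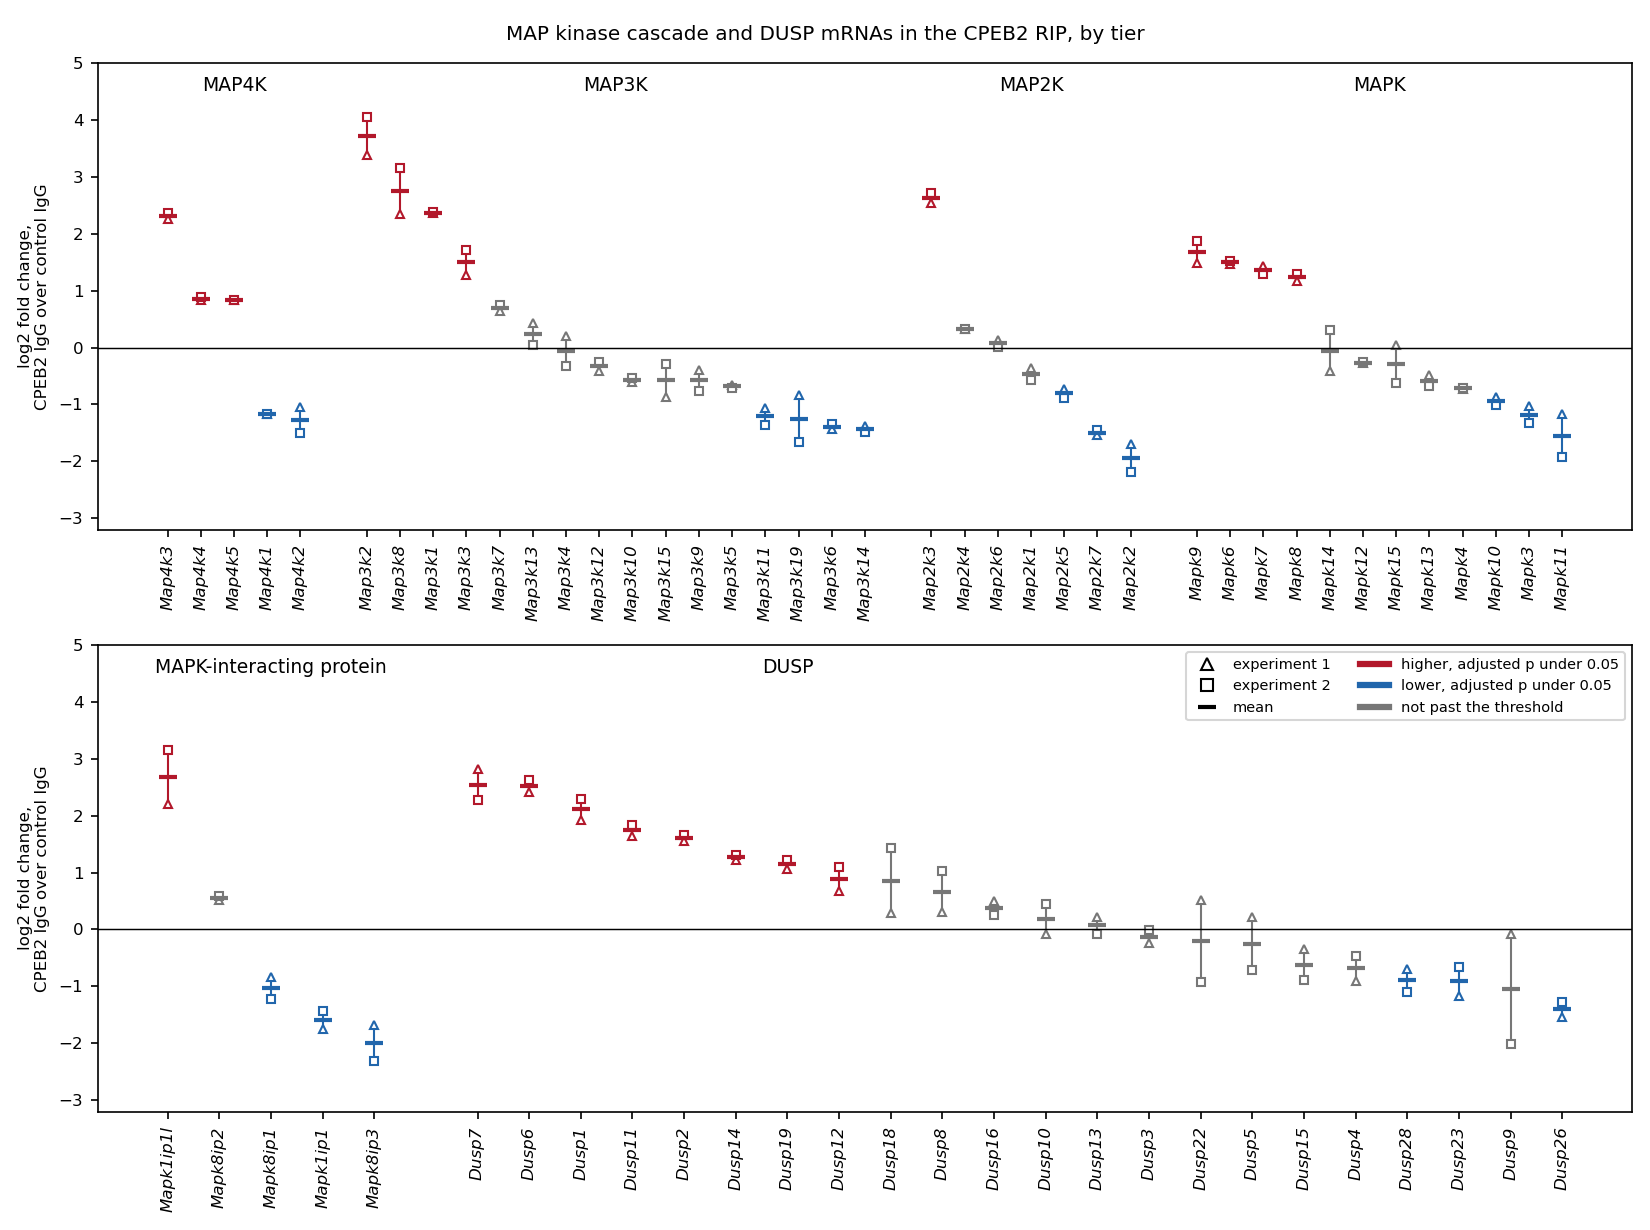
Log2 fold change of CPEB2 IgG over control IgG for 67 of the 68 tested members, by tier of the cascade, with genes ordered within a tier. Triangles and squares are experiments 1 and 2 and bars are their mean, and each of the 6 labelled classes holds genes on both sides of 0, from 3.71 for Map3k2 to -2.0 for Mapk8ip3.

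At the top of the cascade, all 5 MAP4K kinases passed the test, 3 upward and 2 downward, with a median log2 fold change of 0.84. Map4k3 (GLK, a kinase of the JNK branch that also acts in amino acid signalling to mTORC1) gave signals of 8531 and 10587 with CPEB2 IgG against 1782 and 2064 with control IgG. Each CPEB2 IgG array was over 4 times its partner, and the log2 fold change was 2.31 ± 0.07 (n = 2, SD, adjusted p = 0.00543). Map4k4, which links Nck adaptors to JNK signalling, gave 5921 and 5092 against 3317 and 2753, a log2 fold change of 0.86 (adjusted p = 0.0395). Map4k5 gave 4685 and 4437 against 2622 and 2475, or 0.84 (adjusted p = 0.0422). The groups did not overlap in either gene. These smaller calls were fragile, as Map4k4 was lost on removal of any 1 array (adjusted p = 0.0597 to 0.195) and Map4k5 on removal of any array but CPEB2 IgG replicate 1 (adjusted p up to 0.155).

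Map4k1 and Map4k2 were lower with CPEB2 IgG. Map4k1 (HPK1, a kinase of blood cells) gave 44.3 and 49.2 with CPEB2 IgG against 99.2 and 111 with control IgG, a log2 fold change of -1.17 (adjusted p = 0.0177). Map4k2, a kinase of the JNK branch, gave 135 and 130 against 279 and 368, a log2 fold change of -1.27 (adjusted p = 0.0182). In both genes the control arrays were the higher pair. Microglia markers also ran lower with CPEB2 IgG, where their summed signal was 7467 and 6536 against 11580 and 10332. Of these 5 markers 3 were lower and 1 was higher, and their part in the Map4k1 and Map4k2 values was not tested. Without control IgG replicate 2 the adjusted p was 0.0702 for Map4k1 and 0.0715 for Map4k2, and without CPEB2 IgG replicate 2 it was 0.0534 for Map4k2.

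The MAP3K tier, in which each stimulus has its own kinases, was divided evenly. Of 16 tested MAP3K mRNAs, 4 were higher, 4 were lower and 8 did not pass, with a median of -0.45. Map3k2 (MEKK2, which acts on the ERK5 and JNK branches) had the largest fold change of all members. It gave 8673 and 14734 with CPEB2 IgG against 833 and 893 with control IgG. The groups were 13.1-fold apart on average, and the log2 fold change was 3.71 ± 0.47 (n = 2, SD, adjusted p = 0.00543). Map3k1 (MEKK1, an activator of the JNK pathway) was higher in replicate 1 than in replicate 2 with both antibodies, at 4694 and 2325 against 914 and 445. The ratio within each experiment was nearly the same, so that its log2 fold change was 2.37 with an SD of only 0.02 (adjusted p = 0.00543). Its call was lost without CPEB2 IgG replicate 1, in a fit without the pairing (log2 fold change 1.87, adjusted p = 0.0779).

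Map3k8 (TPL2, which activates MEK1 and MEK2 downstream of inflammatory receptors) gave 42.5 and 47.0 with CPEB2 IgG. On the control IgG arrays its probe was not well above background, so only a bound could be given, at least 3.54-fold higher with CPEB2 IgG. Its limma call (adjusted p = 0.00568) was not made on this bound but on the dim control values, 8.41 and 5.30. Map3k8 entered the test through the CPEB2 IgG arrays alone, so its call is no support for a difference, although it is kept in the counts of higher members. It was not tested, and so not called, when signal above background was required on all 4 arrays. Map3k3 (MEKK3, the closest relative of MEKK2) gave 295 and 492 against 122 and 150, a log2 fold change of 1.5 (adjusted p = 0.0118, and 0.0609 without control IgG replicate 1). The 4 MAP3K mRNAs on the lower side were Map3k14 (NIK, the kinase of the non-canonical NF-κB pathway) at -1.43, Map3k6 (ASK2) at -1.39, Map3k19 at -1.25 and Map3k11 (MLK3, a mixed-lineage kinase) at -1.21, all on the log2 scale. Each of these 4 calls was lost without at least 1 control IgG array (adjusted p = 0.0507 to 0.0820), and those of Map3k14 and Map3k19 also without CPEB2 IgG replicate 2 (adjusted p = 0.0630 and 0.0544). The probe of Map3k19 was well above background on only 1 of the 2 CPEB2 IgG arrays. Map3k7 (TAK1, a kinase of cytokine signalling) was near the threshold at 0.70 (adjusted p = 0.0675), and Map3k5 (ASK1, a kinase of oxidative stress) was at -0.68 (adjusted p = 0.0724). In the fit without the experiment as a block both passed.

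Of the 7 MAP2K kinases, which phosphorylate the MAP kinases directly, 1 mRNA was higher, 3 were lower and 3 did not pass, with a median of -0.46. Map2k3 (MKK3, of the p38 branch) was the one called higher, and it gave 460 and 555 with CPEB2 IgG against 79.6 and 84.2 with control IgG. The mean log2 fold change was 2.63 ± 0.13 (n = 2, SD, adjusted p = 0.00543). Map2k6 (MKK6), the other p38 activator, gave 1074 and 997 against 978 and 992, a log2 fold change of 0.07 (SE 0.23, adjusted p = 0.828). The CPEB2 IgG arrays were thus far above the controls for one and level with them for the other, although the difference between the 2 genes was itself not tested.

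On the ERK branch, Map2k2 (MEK2) gave 1038 and 746 with CPEB2 IgG against 3372 and 3383 with control IgG. Both control arrays stood well above both CPEB2 IgG arrays, and the log2 fold change was -1.94 ± 0.34 (n = 2, SD, adjusted p = 0.00719). Map2k1 (MEK1) gave 2957 and 3069 against 3793 and 4537, a log2 fold change of -0.46 that did not pass (SE 0.23, adjusted p = 0.179). On the JNK branch, Map2k7 (MKK7) gave 31.6 and 46.9 against 91.9 and 128, a log2 fold change of -1.5 (adjusted p = 0.00965). Map2k4 (MKK4), which phosphorylates JNK and can phosphorylate p38, gave 2422 and 2452 against 1928 and 1956, or 0.33 (SE 0.23, adjusted p = 0.307). Map2k5 (MEK5, the activator of ERK5) gave 2250 and 1973 against 3731 and 3627, a log2 fold change of -0.80 just past the threshold (adjusted p = 0.0487). Leaving out CPEB2 IgG replicate 1 or control IgG replicate 2 ended the call of Map2k7 (adjusted p = 0.0569 and 0.0610). That of Map2k5 ended without each array other than CPEB2 IgG replicate 1 (adjusted p = 0.0710 to 0.169). The Map2k5 call also ended after each array was centred within bins of probe GC content (-0.52, adjusted p = 0.166). In a limma fit over all probes, its second, dimmer probe was lower at -1.22 (adjusted p = 0.0295), whereas the brightest did not pass (adjusted p = 0.0876).

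Among the 13 MAP kinases, 4 mRNAs were higher, 3 were lower and 6 did not pass, with a median of -0.26. On the ERK branch, Mapk3 (ERK1) gave 4393 and 3850 with CPEB2 IgG against 8939 and 9678 with control IgG. All the control signals were over 2 times the CPEB2 IgG signals, with a log2 fold change of -1.18 ± 0.22 (n = 2, SD, adjusted p = 0.0195, and 0.0652 without control IgG replicate 2). After GC centring the Mapk3 value was -0.70 and did not pass (adjusted p = 0.0681).

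All 3 JNK mRNAs passed, but not in 1 direction. Mapk9 (JNK2) gave 13867 and 18955 with CPEB2 IgG against 4953 and 5158 with control IgG, a log2 fold change of 1.68 ± 0.28 (n = 2, SD, adjusted p = 0.00879). Mapk8 (JNK1) gave 738 and 940 against 327 and 382, a log2 fold change of 1.24 ± 0.09 (adjusted p = 0.0156, and 0.0721 without control IgG replicate 1). Mapk10 (JNK3, the JNK found mainly in the nervous system) gave 15710 and 15145 against 28638 and 30333, a log2 fold change of -0.93 ± 0.10 (adjusted p = 0.0325). The groups did not overlap in any of the 3 genes, with the CPEB2 IgG arrays on top for Mapk8 and Mapk9 and the control arrays on top for Mapk10. In a limma fit over all probes, a second Mapk10 probe was lower at -1.36 (adjusted p = 0.0228), whereas the brightest did not pass (adjusted p = 0.0596). Of the 3 Mapk8 probes 1 passed in that fit, and a second Mapk9 probe stood at -0.35. The call of Mapk10 was lost without control IgG replicate 1 or 2 (adjusted p = 0.0961 and 0.118), under quantile normalization (-0.66, adjusted p = 0.0797) and after GC centring (-0.65, adjusted p = 0.0886).

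**Figure D2:**
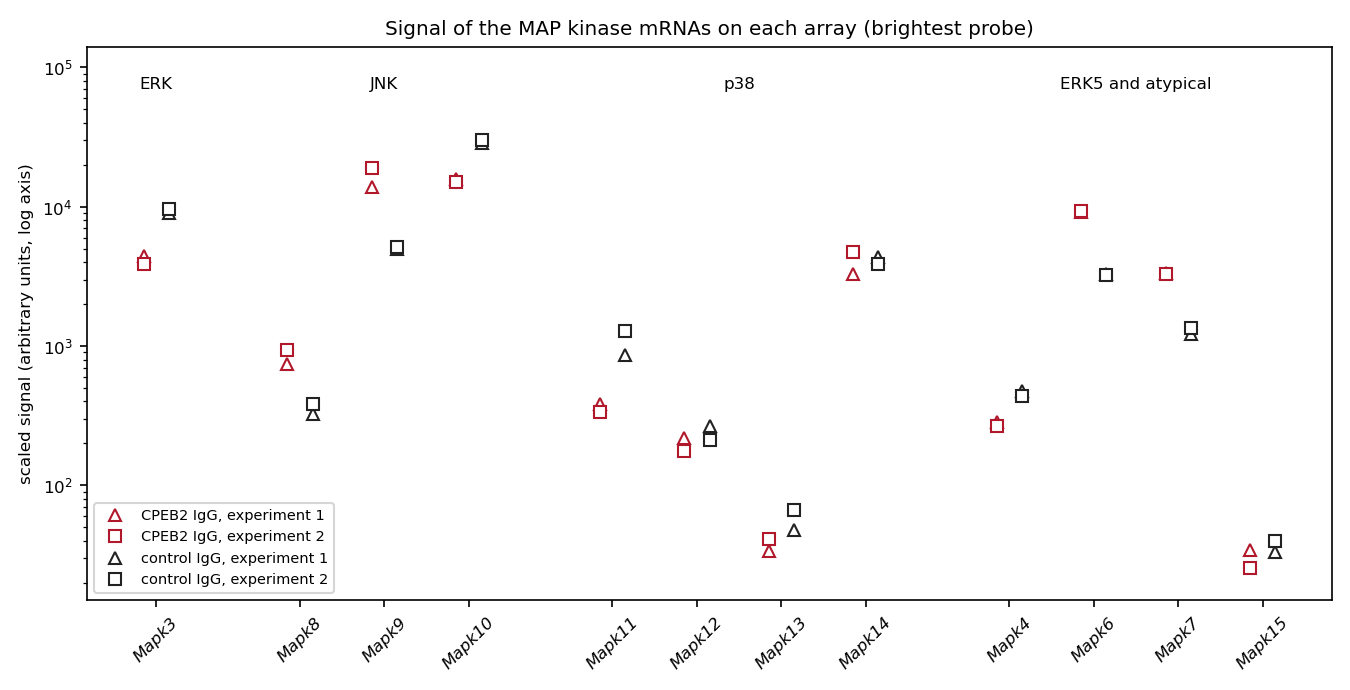
Scaled signal (arbitrary units, log axis) of 12 MAP kinase mRNAs on each of the 4 arrays, on the brightest probe of each gene. Red symbols are CPEB2 IgG and black symbols control IgG, and the red pair lies above the black pair for Mapk8, Mapk9, Mapk6 and Mapk7 and below it for Mapk3, Mapk10, Mapk11, Mapk13 and Mapk4, of which Mapk13 and Mapk4 did not pass the test.

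Of the p38 kinases, Mapk11 (p38β) gave 383 and 335 with CPEB2 IgG against 866 and 1279 with control IgG. The mean log2 fold change was -1.55 ± 0.53 (n = 2, SD, adjusted p = 0.0153, and 0.0588 without CPEB2 IgG replicate 2). The remaining p38 mRNAs did not pass, with log2 fold changes of -0.06 for Mapk14 (p38α), -0.26 for Mapk12 (p38γ) and -0.58 for Mapk13 (p38δ). For Mapk14, the most studied p38, 1 CPEB2 IgG array was above and the other below both controls, at 3262 and 4748 against 4352 and 3852, and its sign turned under median centring (0.17). The sign of Mapk12 turned after GC centring (0.02).

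Mapk7 (ERK5, a large kinase with its own transcriptional activation domain) gave 3322 and 3288 with CPEB2 IgG against 1226 and 1336 with control IgG. The replicates were close within each antibody, and the log2 fold change was 1.37 ± 0.10 (n = 2, SD, adjusted p = 0.0121). Mapk6 (ERK3, an atypical kinase with a short-lived protein) gave 9087 and 9335 against 3267 and 3245, or 1.5 ± 0.03 (adjusted p = 0.00955). Its partner Mapk4 (ERK4) was at -0.72 and did not pass in the paired fit (adjusted p = 0.0630) but did without the block (adjusted p = 0.0403). Mapk15 (ERK8) was dim on all arrays and stood at -0.29 (SE 0.28, adjusted p = 0.451), with a turned sign after GC centring (0.19).

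Because CPEB proteins recognise the cytoplasmic polyadenylation element (CPE), the probes were searched for its DNA letters, TTTTAT and TTTTAAT, on the transcript strand. The letters were in 7 of 115 member probes (6.09%) and in 4.54% of all 55681 array probes. Among tested members they were in the brightest probe of 4 (5.88%), near the 5.75% of all genes tested. These 4 are shown here because 3 of them are MAP kinases called higher and the other is a phosphatase that did not pass. Each line gives 30 bases, 5′ to 3′, in mm9 coordinates as the array annotation gives them, with the CPE letters in capitals.
Mapk6, chr9:75234750-75234779, minus strand: ctgtatgtTTTTATtgaatgatctattccc
Mapk7, chr11:61302374-61302403, minus strand: ccagtattgtattTTTTATtattgttgtaa
Mapk9, chr11:49699519-49699548, plus strand: ctttgcctaatgTTTTATaataaaatatgt
Dusp10, chr1:185898608-185898637, plus strand: gactctatTTTTAATaagtgtaagaagact
Dusp10 (MKP5, a phosphatase of JNK and p38) gave 67.8 and 89.6 with CPEB2 IgG against 71.7 and 65.4, a log2 fold change of 0.19 (SE 0.26, adjusted p = 0.602). Over all genes tested, 39.1% of the 1132 with the letters in the brightest probe were higher, against 20.1% of those without. Their probes also had fewer G and C bases, with medians of 35% and 41.7%, and the part of base composition in this difference was not tested. The opposite strand of probes held the letters in 6.5%. A probe covers only 60 bases of a transcript, and its place in the gene model was not assigned here because no mm9 annotation was used.

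The 5 genes named as MAP kinase interacting proteins hold the scaffolds of the JNK branch. Mapk8ip3 (JIP3, a scaffold that joins JNK signalling to kinesin transport in axons) had the most negative value of all members, at 10032 and 7441 with CPEB2 IgG against 32274 and 36899 with control IgG. The control arrays were over 3 times the CPEB2 IgG arrays, and the log2 fold change was -2.0 ± 0.44 (n = 2, SD, adjusted p = 0.00757). All 3 of its tested probes passed the test in this direction, between -2.33 and -1.67. Mapk8ip1 (JIP1) gave 22398 and 13666 against 40204 and 31847, a log2 fold change of -1.03 (adjusted p = 0.0291) that did not pass without the block (adjusted p = 0.0551) or without any array but CPEB2 IgG replicate 1 (adjusted p = 0.0800 to 0.186). Mapk8ip2 (JIP2) gave 5044 and 5010 against 3540 and 3352, or 0.55 (SE 0.23, adjusted p = 0.122). Thus, of the 3 JIP scaffold mRNAs that the name rule took, 2 were lower and for the other both CPEB2 IgG arrays were above both controls. Spag9 (JIP4), whose symbol falls outside the rule, is in the list of other pathway genes below. It was higher, at 20300 and 27778 against 8003 and 8343 (log2 fold change 1.54, adjusted p = 0.0106), so the JIP scaffolds did not share 1 direction. Mapk1ip1 was lower at 650 and 996 against 2193 and 2703 (log2 fold change -1.60, adjusted p = 0.00924). The related Mapk1ip1l gave 3834 and 7176 against 831 and 804, a log2 fold change of 2.68 ± 0.67 (adjusted p = 0.00625).

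Among the 22 tested of 24 DUSP mRNAs, 8 were higher, 3 were lower and 11 did not pass, with a median of 0.28. The 41 kinases of the cascade gave 12 higher, 12 lower and a median of -0.29, and the difference between the classes was not tested. Dusp21 and Dusp27 were too dim to be tested. The cytoplasmic phosphatases of ERK had the largest values of the class. Dusp6 (MKP3, which binds ERK and is induced by it) gave 53185 and 52352 with CPEB2 IgG against 10017 and 8523 with control IgG. The mean log2 fold change was 2.51 ± 0.15 (n = 2, SD, adjusted p = 0.00543). Dusp7 (MKPX), of the same subfamily, gave 10476 and 6691 against 1491 and 1378, or 2.55 ± 0.38 (adjusted p = 0.00550). Both Dusp7 probes passed, at 2.31 and 2.55, but they overlap on the genome and so do not read separate sites. In both genes every CPEB2 IgG array exceeded every control array by over 4 times. Dusp9 (MKP4), the other member of this subfamily, was dim and spread widely, at 25.8 and 8.14 against 27.1 and 32.9, and did not pass (-1.04 ± 1.37, SD, n = 2). Its probe was well above background on 1 of the 2 CPEB2 IgG arrays.

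Of the nuclear, inducible MKPs, 2 of 4 were higher. Dusp1 (MKP1, an immediate early gene product that acts on p38, JNK and ERK) gave 7351 and 9509 with CPEB2 IgG against 1929 and 1950 with control IgG, a log2 fold change of 2.11 ± 0.25 (n = 2, SD, adjusted p = 0.00611). Dusp2 (PAC1) gave 787 and 922 against 268 and 291, or 1.61 ± 0.08 (adjusted p = 0.00838). The CPEB2 IgG arrays were on top with no overlap in both. Dusp4 (MKP2) was at -0.68 (SE 0.25, adjusted p = 0.0896) and Dusp5, a nuclear phosphatase of ERK, at -0.25 with opposite signs in the 2 experiments. None of the 3 phosphatases that prefer JNK and p38 passed on its brightest probe, with log2 fold changes of 0.66 for Dusp8, 0.38 for Dusp16 and 0.19 for Dusp10. The second Dusp8 probe gave 2026 and 2897 with CPEB2 IgG against 810 and 1207, a log2 fold change of 1.29 that passed (adjusted p over probes = 0.0245). That of Dusp16 was at -0.63 and did not pass (adjusted p over probes = 0.323).

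The atypical DUSPs lack the MAP kinase docking domain, and several have substrates other than MAP kinases. Of 12 tested, 4 were higher, 3 were lower and 5 did not pass. Dusp11, an RNA 5′ phosphatase, gave 136 and 200 with CPEB2 IgG against 43.4 and 56.0 with control IgG (log2 fold change 1.74, adjusted p = 0.00742). Dusp14 (MKP6) gave 6050 and 6373 against 2591 and 2570, with tight replicates on both sides (1.27 ± 0.06, SD, n = 2, adjusted p = 0.0144). Dusp19 was at 1.14 (adjusted p = 0.0192) and Dusp12 at 0.88 (adjusted p = 0.0466), and both calls were lost on removal of either control IgG array (adjusted p = 0.0607 to 0.174), and that of Dusp12 also without CPEB2 IgG replicate 2 (adjusted p = 0.0947). Dusp26, a phosphatase enriched in brain, was lower, at 5530 and 5593 against 16078 and 13507 (-1.41 ± 0.19, adjusted p = 0.0120), and each of its control signals was over 2 times each CPEB2 IgG signal. Dusp23 at -0.91 (adjusted p = 0.0460) and Dusp28 at -0.89 (adjusted p = 0.0444) were close to the threshold, and both were lost with either control IgG array removed (adjusted p = 0.129 to 0.165). They were also lost without 1 CPEB2 IgG array, replicate 1 for Dusp23 (adjusted p = 0.0815) and replicate 2 for Dusp28 (adjusted p = 0.0711). Without the block, Dusp23 had an adjusted p of 0.0507. Dusp22 (JSP1, an activator of JNK signalling) had opposite signs in the experiments, at 544 and 859 against 381 and 1623, where control IgG replicate 2 was the highest array.

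The study selected RNAs by fold enrichment, raw signal and a CPE in the 3′ untranslated region, with no test. Its fold and signal limits, 1.5 and 1000, were applied here to the mean fold and to at least 1 array with CPEB2 IgG, and mirrored for control IgG, on any probe of a gene and with no condition on the CPE. Of 32 members above this signal with CPEB2 IgG, 17 passed upward, against 47.7% of all such genes, so that the members' share was near the background. Of 32 above it with control IgG, 10 passed downward, against 41.3% of all. The upward 17 held Dusp1, Dusp6, Dusp7, Map3k1, Map3k2, Map4k3, Mapk6, Mapk7 and Mapk9 among those described above. They also held Dusp8 and Map3k7, whose brightest probes did not pass limma. A dimmer probe of each passed at the level of probes, at 1.29 for Dusp8 and 1.02 for Map3k7 (adjusted p over probes = 0.0245 and 0.0483). Map2k3, Dusp2 and Mapk8 were called by limma but lay below the signal threshold.

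Different probes of a member did not always give like values. There were 36 tested members with at least 2 tested probes. At the level of probes, 12.7% of all 41137 tested were higher and 14.8% lower, and no member had probes called in opposite directions. In 10 of the 36 members every tested probe was called the same way, in 10 the probes had opposite signs, and in 10 they differed by over 1 on the log2 scale. Among those called the same way, the probes of Map3k1, Mapk1ip1 and Dusp7 overlap on the genome, so their agreement is not that of separate sites. Such counts over all genes are not given here, so those of the members have no background. Mapk9 was one of the members whose probes differed by over 1. Its 3′ probe, at chr11:49699496-49699555 of mm9, gave the values above, with both CPEB2 IgG arrays over both controls. Its other probe, at chr11:49677113-49677172, gave 701 and 698 with CPEB2 IgG against 899 and 883 with control IgG, a log2 fold change of -0.35 that did not pass (adjusted p over probes = 0.398). Both control arrays were on top at that probe.

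In 33 members with probes at least 100 bases apart, the fold change of the 3′-most probe was compared with that of the 5′-most. The 3′ probe had the greater value in 25 of 33 (75.8%), with a median difference of 0.55 on the log2 scale. Over all 5026 genes with such probes it was 73.1%, also with a median of 0.55, so the members followed the whole array here. Mapk1ip1l had the widest gap, 2.68 at its 3′ probe and -0.85 at its 5′ probe, followed by Map3k2 (3.71 and 1.19) and Mapk9 (1.68 and -0.35). Map4k4 (0.86 and -0.50) and Map3k5 (1.07 and -0.68) also had probes of opposite sign. None of these 4 probes passed at the level of probes (adjusted p over probes = 0.0663 to 0.238), so the direction of these genes was left uncertain. Dusp15 (VHY) was the clearest in the other direction, at -1.90 for the 3′ probe and -0.62 for the 5′ probe. The 3′ probe was also the brighter in 22 members and had the lower GC content in 23. After centring within GC bins the 3′ probe was greater in 22 of 33 members and in 67.0% of all genes, and the part of probe brightness was not tested. With the mean of all tested probes in place of the brightest, Mapk9, Mapk8 and Map4k4 no longer passed, at 0.67, 0.63 and 0.18 on the log2 scale (adjusted p = 0.0772, 0.0926 and 0.557).

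**Figure D3:**
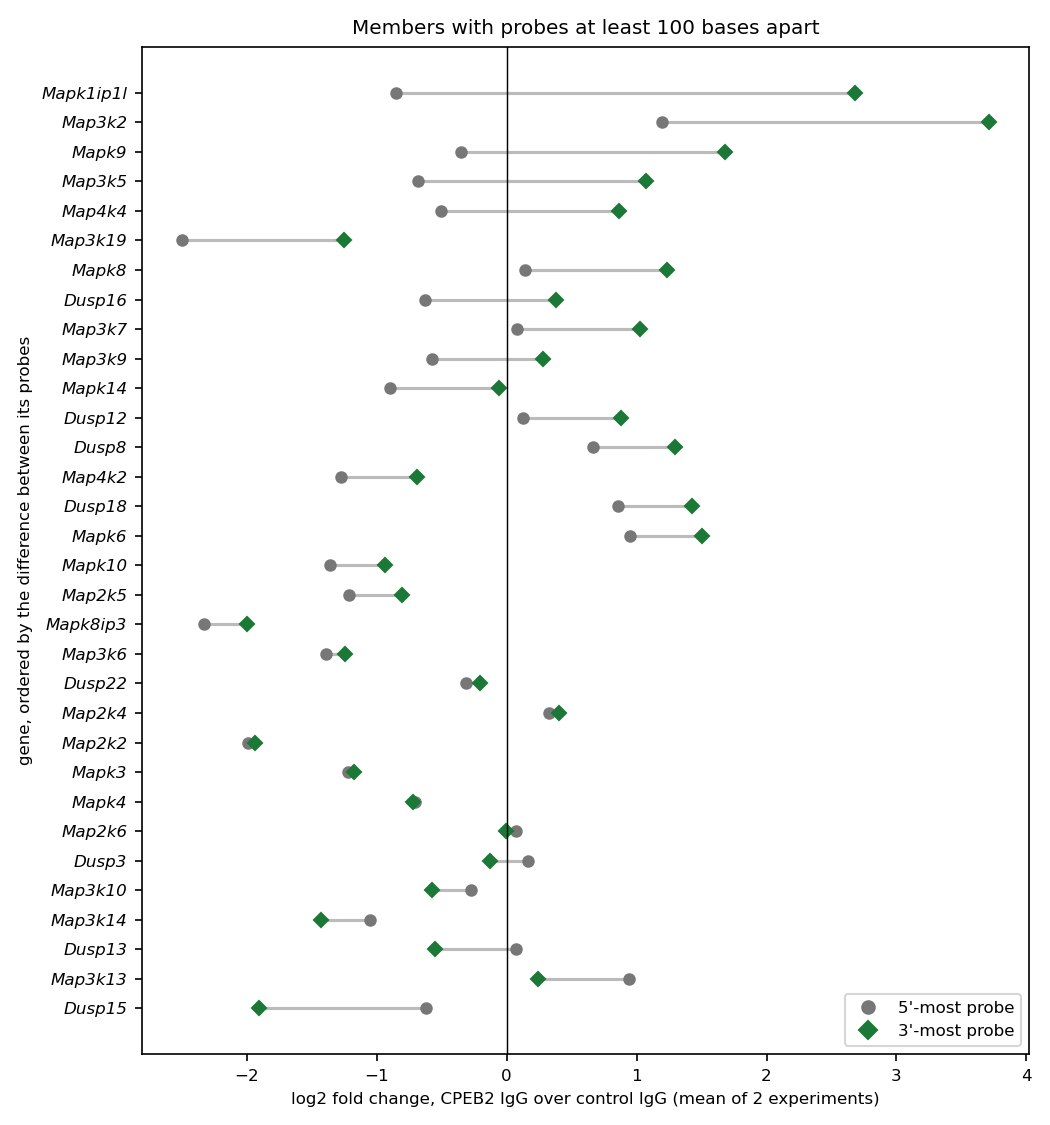
Log2 fold change (CPEB2 IgG over control IgG, mean of 2 experiments) of the 5′-most probe (grey circles) and the 3′-most probe (green diamonds) of 32 of the 33 members whose probes were at least 100 bases apart. The green symbol lies to the right in 24 of 32, with the widest gap in Mapk1ip1l.

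The members' values ran against the GC content of their probes. Over 68 members, which share the 4 arrays, Spearman's rho between probe GC and log2 fold change was -0.53, and over all genes it was -0.37. The median GC was 36.7% in the 21 higher members and 45% in both the 18 lower members and the 29 that did not pass. Dusp6 (GC 45%) and Map3k1 (GC 41.7%) were far above the median of genes with like probes, whereas Mapk3 and Map2k2, both with GC of 55%, lay in a range where the median of all genes was also below 0. After GC centring Map2k2 was at -1.46 and still passed (adjusted p = 0.00217), while Mapk3 did not pass. After each array was centred within GC bins, rho was -0.36 over the members, and 21 were higher and 12 lower. Over all 19698 genes tested, 4962 were then higher and 3532 lower. Of the original calls, 20 higher and 12 lower remained. Those lost were Dusp12, Dusp28, Map2k5, Map3k11, Mapk10, Mapk3 and Mapk8ip1, and Mapk8ip2 was newly called higher.

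**Figure D4:**
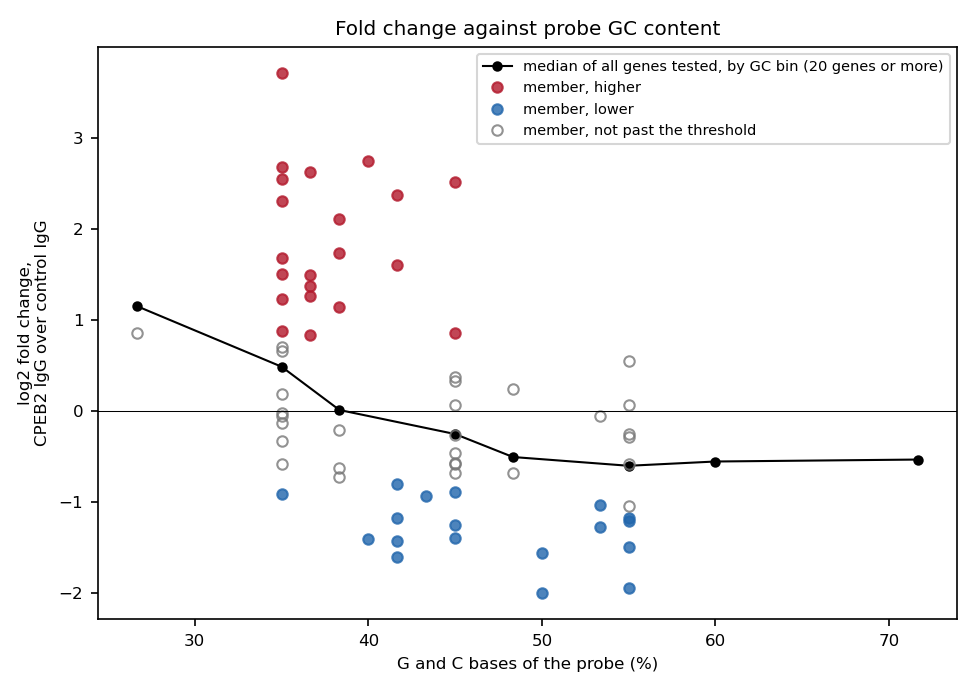
Log2 fold change of CPEB2 IgG over control IgG against the GC content of the brightest probe (%) for 68 members, coloured by call, with the median of all genes tested in GC bins of 20 genes or more as a black line. Higher members lie mostly at low GC (median 36.7%) and lower members at higher GC (median 45%), as the line for all genes also falls.

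Outside the named families, a list of 74 further genes of MAP kinase signalling was examined, of which 71 were tested. The list was chosen with earlier results of these data known, so its counts describe these data and are no independent support. In this list 34 were higher, 7 were lower and 30 did not pass, with a median of 0.81, against 21.2% higher, 20.4% lower and a median of -0.11 over all genes tested. The higher count was smaller without control IgG replicate 2, as was that over all genes tested. Ras and its regulators gave 11 higher and 2 lower of 20, Raf kinases and scaffolds 5 and 2 of 16, and the other kinases at the level of MAP3K and MAP4K 3 and 0 of 7. The kinases activated by MAP kinases gave 5 higher and 0 lower of 11, the nuclear targets 8 and 3 of 14, and the tyrosine phosphatases of MAP kinases 2 and 0 of 3. The part of probe GC content in these counts was not tested. Elk3, an ETS factor phosphorylated by ERK, was higher at 4267 and 2848 against 484 and 333 (log2 fold change 3.12, adjusted p = 0.00543). Taok3, a kinase at the MAP3K level, was at 2.97 and Spred1, an inhibitor of Ras to Raf signalling, at 2.93 (adjusted p = 0.00543 for both). On the lower side stood Rasal1, a Ras GTPase activating protein, at -2.26 (adjusted p = 0.00615), Tab1, the partner of TAK1, at -2.16 (adjusted p = 0.00601) and Mef2c, a neuronal transcription factor and target of p38 and ERK5, at -1.73 (adjusted p = 0.00730). These 6 genes were picked for the largest called changes, and the 2 antibodies' arrays did not overlap in any of them. Over all genes tested, both CPEB2 IgG arrays were on top in 33.7% and both control IgG arrays in 38.2%.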

How the data were processed

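RNA recovered with CPEB2 IgG or control IgG was measured on Agilent SurePrint G3 Mouse GE 8x60K arrays with Cy3. The authors deposited 1 scanner file per array, made with Feature Extraction 10.5.1.1. These hold linear spot intensities after the software's background correction, with no normalization between arrays. Control spots were left out, as were those that the software flags for uneven pixels or for straying from repeats of the same probe, which dropped 66 of 55681 probes. The processed signals were put on the log2 scale, spots of a probe were averaged, and each array was scaled to its 75th percentile (418 to 443 in raw signal). A gene was represented by its brightest probe among those well above background on at least 2 of 4 arrays, which left 19698 of 24185 symbols. Gene names and mm9 probe positions are those of the array annotation, and reading the CPE letters used the probe sequences in the same files.

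CPEB2 IgG and control IgG were compared with limma 3.58.1 in R 4.3.3, with the experiment as a block and Benjamini-Hochberg adjustment over all genes tested. The pairing takes the replicate number to mark 1 lysate divided between the antibodies, which the labels do not state. Same-numbered arrays deviated together only weakly (correlation 0.203). Errors are SDs of the log2 ratios of 2 experiments, so the number of arrays limits the precision. The fold and signal limits of the study were applied as well, with no test and without its condition on the CPE. The fit was tested on simulated data.

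1 member is included in counts but not reported here on its own. Named members were the other MAP2K and MAPK genes and, in each other tier, up to 2 called genes per direction with the largest changes and the same sign in both experiments. Up to 3 genes per direction were taken from the list of other pathway genes, with Gapdh and Cpeb2 as checks. Spag9 of that list was named after its values were seen. Any further member was named after its values were seen. The families and lists were themselves chosen with earlier results of these data known. Alternatives were other scalings (quantile, median, none, percentile of detected probes, GC bins), normexp, marked spots kept, no block, other probe filters, an intensity trend, the mean of probes, other thresholds and each array or experiment left out. The comparison of 3′ and 5′ probes and its alternatives were added after seeing the data. No other genome annotation was used.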

Additional observations from a re-analysis of the deposited data

How the results depend on the processing

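Over 16 alternative limma fits, 12 of the 21 higher members and 4 of the 18 lower members kept their call in every fit (Dusp1, Dusp11, Dusp14, Dusp2, Dusp6, Dusp7, Map2k3, Map3k2, Map4k3, Mapk1ip1l, Mapk6 and Mapk7, and Dusp26, Map2k2, Mapk1ip1 and Mapk8ip3), and no called member changed direction in any. Without the experiment as a replicate block the count was 22 higher and 18 lower, with Dusp23 and Mapk8ip1 lost and Map3k5, Map3k7 and Mapk4 gained, and the pairing changed no other call among the members. Over all genes tested this fit gave 4260 higher and 3999 lower. With 1 array left out, in fits without the block that take the lone array of a group to vary like the others, the lower count ran from 6 to 17 and the higher count from 15 to 21. Without a filter on dim probes, where more genes were tested, 15 members were higher and 7 lower, and of the other pathway genes 19 were higher and 4 lower. Over all 24164 genes then tested, 2265 were higher and 1837 lower. With 1 array left out the other pathway genes gave 22 to 31 higher. The cause of these changes was not tested. Other scalings shifted the median of all genes by 0.13 (quantile), 0.23 (median), 0.19 (GC bins) and -0.11 (percentile of detected probes) and gave 21 and 16, 24 and 13, 21 and 12, and 18 and 19 members higher and lower. Over all genes tested they gave, in the same order, 4697 and 4047, 5212 and 3301, 4962 and 3532, and 3824 and 4570. The main fit gave 4174 and 4020.

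The tier medians minus that of all genes were 0.95 for MAP4K, -0.34 for MAP3K, -0.35 for MAP2K and -0.92 for the interacting proteins. For MAP4K the value was 0.72 under quantile normalization and 0.31 with the mean of probes. For MAP3K it was 0.033 with the mean of probes and -0.39 to -0.11 with 1 experiment left out. For MAP2K it was -0.58 under quantile normalization, -0.26 after GC centring, -0.45 with normexp, -0.33 with the mean of probes and -0.37 to -0.35 with 1 experiment left out. For the interacting proteins it was -0.75 under quantile normalization and -0.60 after GC centring. The cause was not tested.

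Among named genes, signs turned in 4 that had not passed. Map2k6 was -0.016 under quantile normalization and -0.037 with the percentile of detected probes. Mapk12 was 0.021 after GC centring, Mapk14 0.17 under median centring -0.33 to 0.21 with 1 array left out and -0.42 to 0.30 with 1 experiment left out, and Mapk15 0.19 after GC centring and 0.0070 with normexp.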

Other observations

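The 2 experiments differed by over 1 on the log2 scale in 3 of 68 members (4.41%) and in 12.9% of all genes tested. The SD of a member's log2 fold change between experiments had a median of 0.198 and ran from 0.00245 to 1.37, with the highest value in Dusp9.

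Other cell type markers in the same RNA ran as follows. The summed signal of 5 astrocyte markers was 39454 and 35529 with CPEB2 IgG against 34417 and 25384 with control IgG, with 1 marker higher and 3 lower. The 5 oligodendrocyte markers summed to 55941 and 56045 against 62152 and 50988, with 2 lower. The 3 erythrocyte markers summed to 22614 and 14798 against 41278 and 27972, with 1 lower. The 4 endothelial markers summed to 2125 and 2111 against 2394 and 1966, with 1 higher. Of the 6 neuron markers 1 was higher and 2 were lower, and of the 5 excitatory neuron markers 1 was higher and 1 lower.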
